A study of Mus musculus with 6 samples.

Results

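Semaphorins are guidance cues, plexins are their main receptors, and neuropilins are coreceptors that secreted semaphorins need to reach most plexins. The 31 genes described here are all mouse protein-coding genes with a symbol of the Sema3 to Sema7, Plxn or Nrp1 and Nrp2 series, out of 22180 genes that had a named row on the array. They comprise 20 semaphorins, 9 plexins and 2 neuropilins. The symbols alone chose them, and each of the 31 such genes in RefSeq had a row. Expression was measured on Affymetrix arrays in pooled embryonic hearts of C57BL/6 mice at embryonic day 9.5. The 3 Hdac3-flox/flox pools carried floxed alleles of the histone deacetylase gene Hdac3 and no Cre. The 3 Hdac3-Isl1KO pools, of the genotype Hdac3-flox/flox; Isl1-Cre, lost Hdac3 where Isl1 had driven Cre, which includes the second heart field, so the rest of the heart kept the gene. Cre was present in one group alone, so its own effects and those of Hdac3 loss cannot be told apart. How many hearts made a pool, and from which litters, was not stated, so p-values reflect spread among 3 pools per group that may be technical.

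Plexins carry a GTPase-activating domain inside the cell, and ligand binding turns it on small GTPases, which loosens adhesion and collapses the leading edge of a moving cell. In the developing heart, Sema3c from the outflow tract attracts cardiac neural crest cells through Plxna2, Plxnd1 and the neuropilins, and mice without Sema3c or Plxnd1 fail to divide the outflow tract. Class 3 semaphorins are secreted, classes 4 to 6 span the membrane, and Sema7a is held by a lipid anchor. Neuropilins also bind vascular endothelial growth factors, so the same coreceptors serve blood vessel growth.

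The values are log2 expression, and a difference is Hdac3-Isl1KO minus Hdac3-flox/flox on that scale. Hdac3 itself stood at 9.68 ± 0.05 in Hdac3-flox/flox and 9.21 ± 0.10 in Hdac3-Isl1KO (SD, n = 3 each; limma adjusted p = 0.0636), and Isl1 differed by -0.03 (limma adjusted p = 0.913). Correlations between arrays lay between 0.980 and 0.989. All 12 cardiomyocyte markers, such as Tnnt2 and Myh6, lay above the 75th percentile of array rows in Hdac3-flox/flox. Of the 31 genes, 8 also lay above that percentile, 4 lay below the median row of 5.66, namely Plxnb3, Sema4d, Sema4f and Sema4g, and 0 lay below the 25th percentile of 4.45.

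None of the 31 genes passed the test over all genes (limma with Benjamini-Hochberg adjustment, threshold 0.05), where 0.428% of all genes did. The genes with the clearest differences were Sema6d and Sema3d, both lower in Hdac3-Isl1KO, Nrp2, which was higher, and the B plexin genes Plxnb1 and Plxnb3, which were lower. The smallest adjusted p was that of Sema6d, 0.144. At an unadjusted limma p under 0.05 there were 5 genes, or 16.1%, against 14.5% of all genes. The median difference was 0.0023, against 9.4e-05 over all genes, with 16 genes above 0 and 15 below. Both the share and the median of the family lay close to those of all genes.

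**Figure D1:**
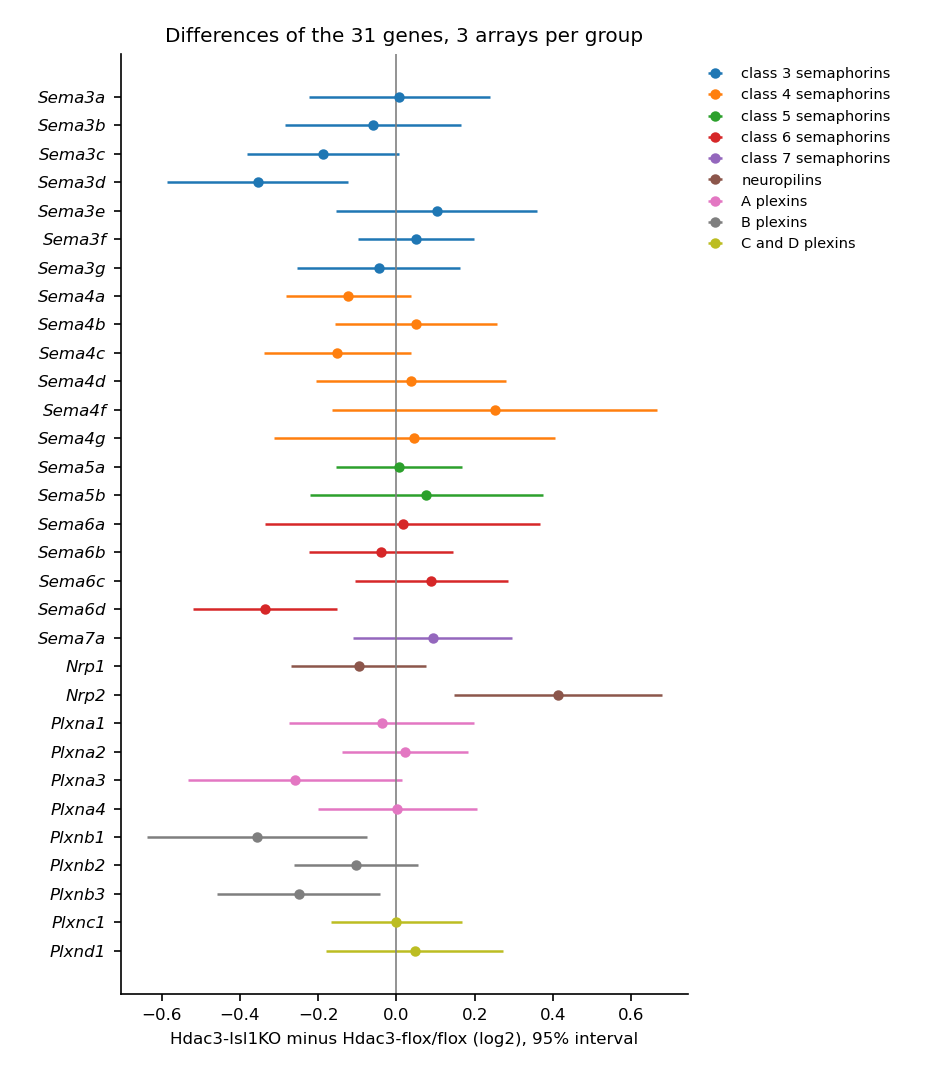
Differences between Hdac3-Isl1KO and Hdac3-flox/flox hearts on the log2 scale for the 31 genes, grouped by class; points are differences of means of 3 arrays per group and lines are 95% intervals from the limma fit. The intervals of Sema3d, Sema6d, Nrp2, Plxnb1 and Plxnb3 do not reach 0, and Nrp2 at 0.41 lies farthest to the right.

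The arrays bounded the whole-heart signal of most of the family closely. The 95% interval lay within a 1.5-fold change in either direction for 27 of the 31 genes, and the others were Nrp2, Plxnb1, Sema3d and Sema4f. The half-width of the interval ran from 0.15 for Sema3f to 0.42 for Sema4f, with a median of 0.21, and 19 genes had a difference smaller than 0.1 in size. RMA, the method behind the deposited values, compresses differences of dim probe sets, so intervals of dim genes such as Sema4f bound the array signal and less closely the transcript. In whole hearts, fewer cells of a type and less RNA per cell cannot be told apart. Hdac3 itself, lost only where Cre was active, differed by -0.47 in these pools. The intervals therefore do not bound a change within the Cre-active cells.

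Among the secreted class 3 ligands, Sema3d differed most. Sema3d is made by the proepicardium and epicardium and patterns the pulmonary veins. Its arrays read 6.08, 6.30 and 6.23 in Hdac3-flox/flox and 5.96, 5.88 and 5.70 in Hdac3-Isl1KO. Every Hdac3-Isl1KO array lay below every Hdac3-flox/flox array, with a gap of 0.12 between the groups. This is a difference of -0.36 (95% interval -0.59 to -0.12), 1.28-fold lower, with a limma unadjusted p of 0.00844 and an adjusted p of 0.194. It lay between -0.42 and -0.28 with any 1 array left out.

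Most other markers of the proepicardium and epicardium had lower readings in the same hearts. Without Sema3d, 9 of 11 measured markers had differences below 0, the median was -0.19, and Upk3b and Upk1b, which encode uroplakins of that epithelium, fell over all genes (limma adjusted p = 0.00895 and 0.0268). The mean log2 level of these 11 markers ran from 7.21 to 7.28 over the Hdac3-flox/flox arrays and from 6.94 to 6.97 over the Hdac3-Isl1KO arrays, so the groups did not overlap. Of the 11, 3 were lower at an unadjusted limma p under 0.05 and 4 were lower without overlap, against 7.96% and 12.4% of all genes. Wt1, a defining transcription factor of the epicardium, stood at 8.08 in both groups, and Scx, a transcription factor of tendon progenitors that also marks part of the proepicardium, was higher in every Hdac3-Isl1KO array, by 0.12 (limma adjusted p = 0.516). In level, 1 of the 11 lay below the 25th percentile row. The list was chosen with earlier results of these data known, so its counts and levels are not independent evidence. The part of these cells in the Sema3d value was not tested.

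Sema3c, the outflow tract ligand of the neural crest, read 8.30, 8.34 and 8.26 in Hdac3-flox/flox and 8.25, 8.01 and 8.08 in Hdac3-Isl1KO. The groups were separate, but only by 0.014 between the lowest Hdac3-flox/flox and the highest Hdac3-Isl1KO array. The difference was -0.19 (95% interval -0.38 to 0.0063, limma unadjusted p = 0.0560, adjusted p = 0.361). It lay between -0.25 and -0.14 with any 1 array left out.

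The other 5 secreted ligands had differences between -0.06 and 0.10, and in each the groups overlapped. Sema3a, which repels axons and sympathetic fibres, differed by 0.0077, and Sema3g, an endothelial semaphorin, by -0.05. Both of these signs turned under other settings. Sema3b differed by -0.06 and Sema3f, the classical ligand of neuropilin-2, by 0.05. Sema3e, which binds Plxnd1 without a neuropilin, differed by 0.10 (95% interval -0.15 to 0.36). Its Hdac3-flox/flox replicate 2 array read 5.49 while the other 5 arrays lay between 5.68 and 5.90, and without that array the difference was 0.0019. The 4 genes Sema3a, Sema3c, Sema3d and Sema3e lie on chromosome 5, and of these the lower values were those of Sema3c and Sema3d.

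The neuropilins, the coreceptors of these ligands, stood apart from each other. Nrp2 prefers Sema3f and Sema3c and binds the lymphatic growth factor Vegfc, while Nrp1 prefers Sema3a and binds Vegfa. Nrp2 read 7.38, 7.47 and 7.08 in Hdac3-flox/flox and 7.77, 7.65 and 7.75 in Hdac3-Isl1KO. All 3 Hdac3-Isl1KO arrays lay above all Hdac3-flox/flox arrays, by at least 0.18, and Hdac3-flox/flox replicate 3 was the lowest. The difference was 0.41 (95% interval 0.15 to 0.68), or 1.33-fold higher, with a limma unadjusted p of 0.00795 and an adjusted p of 0.192. Without Hdac3-flox/flox replicate 3 it was 0.30, the lowest value with 1 array left out, and the highest was 0.49.

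In the deposited scaling 1 gene of the family, Nrp2, had all Hdac3-Isl1KO arrays above the Hdac3-flox/flox arrays, which makes 3.23% against 9.41% of all genes. Sema3f joined it when quantile normalization was repeated and when arrays were centred on their medians. A variance prior trended on the mean level took it past the threshold (limma adjusted p = 0.0427; over all settings from 0.0427 to 0.418), but under that prior 3.90% of all genes passed. Nrp1 read 10.05, 10.14 and 9.96 in Hdac3-flox/flox and 9.94, 9.93 and 9.99 in Hdac3-Isl1KO, which overlapped. Its difference was -0.10 (95% interval -0.27 to 0.08, limma adjusted p = 0.593).

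**Figure D2:**
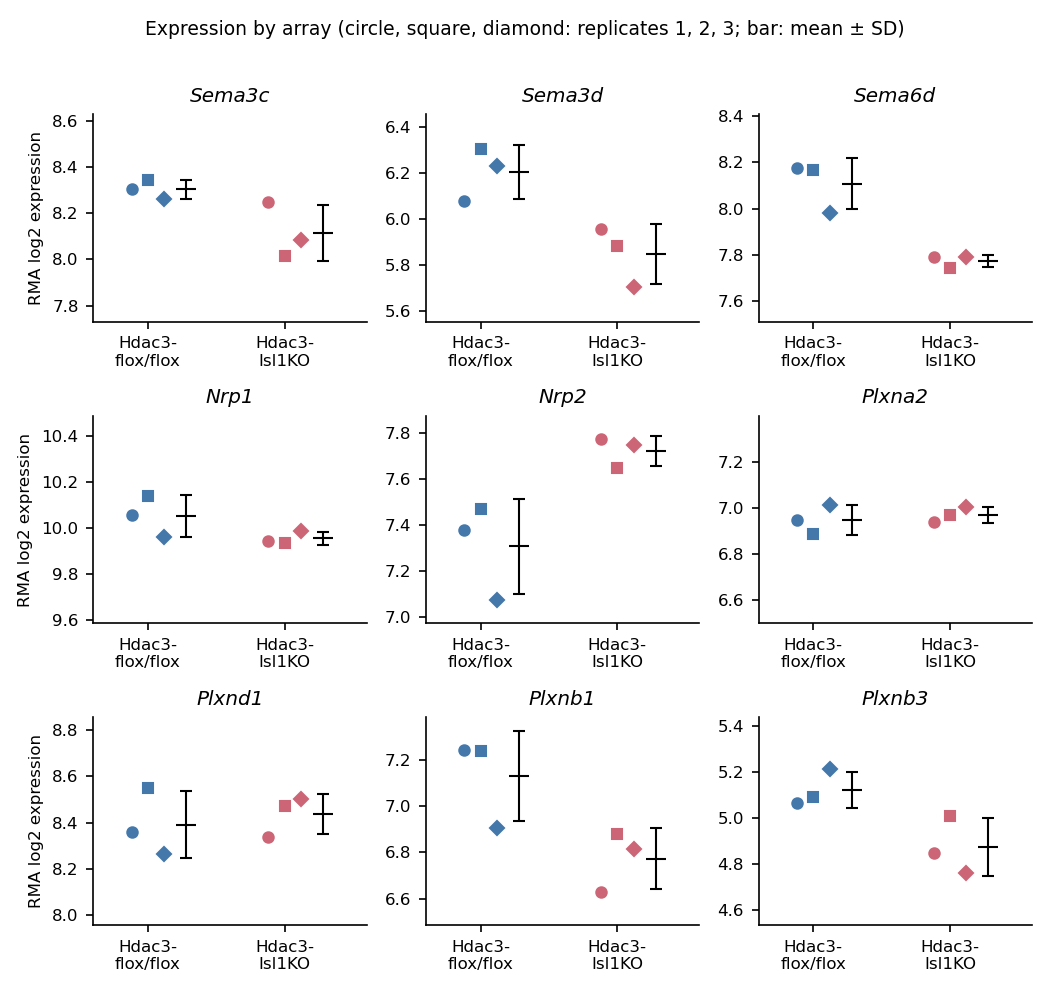
RMA log2 expression by array for 9 genes in Hdac3-flox/flox (blue) and Hdac3-Isl1KO (red) hearts, with the mean and SD of 3 arrays beside them; each panel spans 0.9 log2 units but starts at its own level. The groups are separate for Sema3c, Sema3d, Sema6d, Nrp2, Plxnb1 and Plxnb3 and overlap for Nrp1, Plxna2 and Plxnd1.

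Marker lists of other tissues and cell types are given beside Nrp2. Of all genes 6.57% were higher at an unadjusted limma p under 0.05 and 9.41% were higher without overlap. Of 12 markers of pharyngeal and surface epithelium 11 were above 0, with a mean level of 5.47 to 5.63 in Hdac3-flox/flox and 5.79 to 5.87 in Hdac3-Isl1KO, and 0 passed with limma while 7 were higher at an unadjusted p under 0.05 and 8 were higher without overlap. Smallest in p were Krt8, Epcam and Cldn6, with differences of 0.48, 0.52 and 0.38 (limma adjusted p = 0.0628, 0.0951 and 0.109). By contrast, Nkx2-1, Pax9, Pax8 and Shh differed by -0.10, 0.0070, 0.16 and 0.06, each with overlapping groups. Of 12 hepatic and yolk sac endoderm markers 11 were above 0 (5.33 to 5.47 against 5.77 to 5.81). At an unadjusted p under 0.05, 5 were higher, 7 were higher without overlap, and Fgb, a fibrinogen chain, rose (limma adjusted p = 0.0204). Apob, Rbp4, Hnf4a, Cubn and Amn differed by 0.23, 0.12, 0.14, 0.03 and -0.0011, each with overlapping groups. Of 10 trophoblast markers 9 were above 0 (5.76 to 5.96 against 6.71 to 6.76), and 6 rose, the hormone genes Prl4a1, Prl7a1, Prl3d3 and Psg29 and the steroid synthesis genes Cyp11a1 and Star. Hand1, Plac1, Ascl2 and Tpbpa of that list did not pass, with differences of 0.16, 0.19, -0.04 and 0.10, and the last 3 had overlapping groups. The 6 trophoblast markers that rose were listed with their rise in these arrays already known. Neither their count nor that list's count above 0 and its mean levels are therefore independent evidence. The other lists were also chosen with earlier results of these data known, so their counts and levels are not independent evidence either. Groups of arrays did not overlap in the mean level of the epithelial and endoderm lists. Below the 25th percentile row lay 1 epithelial marker, 0 of the endoderm markers and 1 trophoblast marker. Below the median row lay 9 epithelial, 7 endoderm and 4 trophoblast markers. Endothelial markers, for cells that express neuropilins, had 6 above and 6 below 0, with levels from 7.93 to 8.05 and from 7.991 to 7.996. Of these 12, 1 was lower at an unadjusted limma p under 0.05 and 3 were lower without overlap, against 7.96% and 12.4% of all genes. Neural crest markers had 9 of 11 above 0, a median of 0.03 and overlapping levels (5.94 to 6.13 and 6.07 to 6.16). Of these 11, 1 was higher at an unadjusted p under 0.05 and 1 was lower without overlap. The part of any of these cells in the Nrp2 value was not tested.

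The plexins that take up the Sema3c signal showed no separation of the groups. Plxna2, a receptor of cardiac neural crest cells, read 6.95, 6.89 and 7.01 in Hdac3-flox/flox and 6.94, 6.97 and 7.01 in Hdac3-Isl1KO. Its difference of 0.02 had an interval from -0.14 to 0.18 (limma adjusted p = 0.916). Plxnd1, the endothelial plexin whose loss leaves a common outflow vessel in mice, read 8.36, 8.55 and 8.26 in Hdac3-flox/flox and 8.34, 8.47 and 8.50 in Hdac3-Isl1KO, a difference of 0.05 (95% interval -0.18 to 0.27, limma adjusted p = 0.867). Both signs turned when 1 array was left out. For this ligand and its receptors, the differences thus stood at -0.19 for Sema3c, 0.02 for Plxna2, 0.05 for Plxnd1, -0.10 for Nrp1 and 0.41 for Nrp2.

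The other A plexins, which pair with neuropilins or bind class 6 semaphorins directly, also overlapped between the groups. Plxna1 differed by -0.04 and Plxna4 by 0.0023, and both signs turned under other settings. A second, dimmer row of Plxna1 differed by 0.05. Plxna3 differed by -0.26 (95% interval -0.53 to 0.01, limma unadjusted p = 0.0602, adjusted p = 0.372). Its arrays read 6.96, 7.29 and 7.04 in Hdac3-flox/flox and 6.99, 6.71 and 6.81 in Hdac3-Isl1KO, so Hdac3-Isl1KO replicate 1 fell among the Hdac3-flox/flox arrays, and without Hdac3-flox/flox replicate 2 the difference was -0.16.

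Of the membrane-spanning semaphorins of class 6, Sema6d differed most. Sema6d signals through Plxna1, and in the chick heart the pair guides cells of the cardiac tube and the growth of the ventricle wall. Its arrays read 8.18, 8.17 and 7.98 in Hdac3-flox/flox and 7.79, 7.74 and 7.79 in Hdac3-Isl1KO. The Hdac3-Isl1KO arrays lay within 0.05 of each other and below all Hdac3-flox/flox arrays, with a gap of 0.19 that was the widest in the family. Sema6d thus differed by -0.34 (95% interval -0.52 to -0.15), 1.26-fold lower, with a limma unadjusted p of 0.00361 and an adjusted p of 0.144.

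Over all genes, 553 had a smaller p than Sema6d. It passed the threshold in a test of the genes above the median row (limma adjusted p = 0.0372, where 4.94% of all genes tested passed) and under a prior trended on the mean level (0.0224), and over all settings its adjusted p ran from 0.0224 to 0.365. With any 1 array left out the difference lay between -0.40 and -0.30. Its receptor gene Plxna1 differed by -0.04 and Kdr, the VEGF receptor gene that can join Plxna1 in a receptor complex, by -0.06, both with overlapping groups.

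Sema6a, a ligand of Plxna2 and Plxna4, differed by 0.02, and arrays ranged from 6.04 to 6.46 in Hdac3-flox/flox and from 6.14 to 6.54 in Hdac3-Isl1KO. Without Hdac3-flox/flox replicate 2 its difference was -0.09. Sema6b differed by -0.04 and Sema6c by 0.09, with overlapping groups.

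The class 4 semaphorins and the B plexins, which bind them without neuropilins, form the next arm. In the deposited scaling all 3 B plexins were lower in every Hdac3-Isl1KO array than in any Hdac3-flox/flox array, as were 12.4% of all genes. Plxnb1 overlapped between groups when quantile normalization was repeated, and Plxnb2 did when arrays were centred on their medians. Differences of the 3 stayed below 0 under every alternative setting that was run. Plxnb1, the receptor of Sema4d that works together with the kinases Met and Erbb2, read 7.24, 7.24 and 6.91 in Hdac3-flox/flox and 6.63, 6.88 and 6.81 in Hdac3-Isl1KO. The groups were separate by 0.03, and Hdac3-flox/flox replicate 3 lay close to the Hdac3-Isl1KO arrays. Plxnb1 differed by -0.36 (95% interval -0.64 to -0.08, limma unadjusted p = 0.0201, adjusted p = 0.254), 1.28-fold lower, and a dimmer row of the gene differed by -0.23 (95% interval -0.48 to 0.0095).

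Plxnb3, a receptor for Sema5a that is dim on these arrays, read 5.06, 5.09 and 5.21 in Hdac3-flox/flox and 4.85, 5.01 and 4.76 in Hdac3-Isl1KO. The difference was -0.25 (95% interval -0.46 to -0.04, limma unadjusted p = 0.0256, adjusted p = 0.273). Plxnb2, the receptor of Sema4c that is needed for neural tube closure, read 8.87, 8.94 and 8.82 in Hdac3-flox/flox and 8.75, 8.77 and 8.80 in Hdac3-Isl1KO. Its difference of -0.10 (95% interval -0.26 to 0.05) was the smallest in size of the 3, and the groups were 0.02 apart.

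Plxna3 and Plxnb3 are both on the X chromosome, and the sex of the pooled embryos was not stated. Xist, the RNA of the inactive X chromosome, stood at 9.96 ± 0.0086 in Hdac3-flox/flox and 9.86 ± 0.09 in Hdac3-Isl1KO (SD, n = 3 each; difference -0.10, 95% interval -0.27 to 0.07). The Y-linked genes Eif2s3y, Uty and Kdm5d differed by -0.23, -0.16 and -0.06, each with an interval that includes 0. Xist and Eif2s3y were lower in every Hdac3-Isl1KO array, while the groups overlapped for Uty and Kdm5d. The part of sex makeup in the values of Plxna3 and Plxnb3 was not tested.

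Since the B plexins were the only class with more than 1 gene in which all members were separate in the deposited scaling, the bases just before their start sites are shown. RefSeq sequence of build GRCm38.p6 gave 120 bases upstream of the first annotated start of each, read 5′ to 3′ on the gene's strand, and capitals mark the motif GGGCGG on either strand, the GC box to which SP and KLF factors bind.
Plxnb1: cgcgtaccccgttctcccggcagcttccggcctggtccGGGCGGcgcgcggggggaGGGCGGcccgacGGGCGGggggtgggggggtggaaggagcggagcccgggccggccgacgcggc
Plxnb2: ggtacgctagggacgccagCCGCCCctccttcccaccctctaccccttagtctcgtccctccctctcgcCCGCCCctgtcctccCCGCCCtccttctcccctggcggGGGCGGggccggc
Plxnb3: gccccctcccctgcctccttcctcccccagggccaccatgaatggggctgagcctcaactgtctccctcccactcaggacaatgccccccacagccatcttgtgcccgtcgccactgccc
These windows are chr9:109095316-109095435 on the plus strand for Plxnb1, chr15:89180789-89180908 on the minus strand for Plxnb2 and chrX:73756983-73757102 on the plus strand for Plxnb3. Within the 250 bases before each start, Plxnb1 and Plxnb2 each held 4 copies of GGGCGG on either strand and 30 and 20 CpG dinucleotides, while Plxnb3 held 0 copies and 3 CpG. The arrays carry no measure of binding there.

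The same search was run for the whole family. RefSeq gave 37 start sites for 26 of the 31 genes, with a median of 13 CpG in 250 bases, against 6 over 32851 start sites of all genes. GGGCGG was found before 73.0% of the family's start sites and 32.7% of all. AGATAA, the core bound by GATA factors of heart and blood, was found on either strand before 0 of the family's 37 start sites and 3281 of all 32851. The 2 motifs cannot overlap, and base composition was not matched between the family and all genes. A match or its lack describes these letters and nothing about binding.

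Class 4 ligands differed by -0.15 to 0.25, and 0 of the 6 had an unadjusted limma p under 0.05. Sema4c read 7.61, 7.68 and 7.45 in Hdac3-flox/flox and 7.42, 7.42 and 7.44 in Hdac3-Isl1KO, a difference of -0.15 (95% interval -0.34 to 0.04, limma adjusted p = 0.441) with groups 0.0072 apart. Sema4a, which also binds Plxnd1, read 5.77, 5.72 and 5.85 against 5.67, 5.63 and 5.67, a difference of -0.12 (95% interval -0.28 to 0.04, limma adjusted p = 0.460), again without overlap. Sema4d, the ligand of Plxnb1, differed by 0.04 with overlapping groups, so the lower Plxnb1 readings stood beside an interval of -0.20 to 0.28 for its ligand. Sema4b differed by 0.05 and Sema4g by 0.05. Sema4f differed by 0.25, with the widest interval of the family, -0.17 to 0.67, and its arrays ran from 4.23 to 4.77 in Hdac3-flox/flox and from 4.48 to 4.99 in Hdac3-Isl1KO.

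Class 5 semaphorins carry thrombospondin repeats and can attract or repel depending on the matrix they meet. Sema5a differed by 0.0068 (95% interval -0.15 to 0.17), with arrays between 5.80 and 5.91 in both groups, and Sema5b by 0.08 (-0.22 to 0.37). Sema7a, which signals through Plxnc1 and through integrins, differed by 0.09 (95% interval -0.11 to 0.30). Hdac3-Isl1KO replicate 1, at 5.94, lay below the Hdac3-flox/flox arrays, which were between 5.99 and 6.03, and the other Hdac3-Isl1KO arrays above them, at 6.13 and 6.22. Its receptor Plxnc1 stood at 7.18 in both groups (SD 0.07 and 0.05, n = 3 each; interval of the difference -0.17 to 0.17).

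Across the family, 8 genes were lower in every Hdac3-Isl1KO array, which is 25.8% against 12.4% of all genes: Sema3c, Sema3d, Sema4a, Sema4c, Sema6d, Plxnb1, Plxnb2 and Plxnb3. Together with Nrp2 this made 9 genes without overlap, or 29.0% against 21.8%. The lower count depends on the scaling of the arrays. It was 6 when quantile normalization was repeated, against 9.91% of all genes, and 5 with arrays centred on their medians, against 10.5%, and in both Sema3d, Sema4a, Sema6d and Plxnb3 were among them. The higher count, 1 in the deposited scaling, was 2 in both, against 12.3% of all genes with repeated quantile normalization and 9.06% with centred arrays. Without Hdac3-Isl1KO replicate 1 there were 14 genes without overlap, in a comparison of 2 with 3 arrays, where overlap is less likely by construction. The share of all genes was not counted there, so these 14 have no background to be set against.

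Single arrays differed more than the groups for much of the family. SDs within a group ran from 0.02 to 0.27 in Hdac3-flox/flox and from 0.01 to 0.26 in Hdac3-Isl1KO, with medians of 0.11 and 0.12. Hdac3-flox/flox replicate 2, the array least like the others over all rows, held the highest value of 10 genes and the lowest of 5, so 15 of 31 genes had an extreme there. Other arrays came near this. Hdac3-Isl1KO replicate 1 held the highest value of 4 genes and the lowest of 9, and Hdac3-Isl1KO replicate 2 those of 6 and 7. With Hdac3-flox/flox replicate 2 left out, 4 genes had an unadjusted limma p under 0.05 in place of 5, as Plxnb1 no longer did. Without Hdac3-Isl1KO replicate 3 there were also 4, as Plxnb3 no longer did. With any other array left out there were 5, but not always the same 5. Plxna3 replaced Plxnb1 without Hdac3-flox/flox replicate 1, and Sema4c replaced Plxnb3 without Hdac3-flox/flox replicate 3. Without Hdac3-Isl1KO replicate 1, Sema3c and Plxna3 replaced both. Sema3d, Sema6d and Nrp2 stayed under 0.05 with any 1 array left out. The share of all genes under 0.05 was not counted in these fits. The signs of 17 genes stayed the same with each array left out in turn and under all other settings run, while those of 14 turned.

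**Figure D3:**
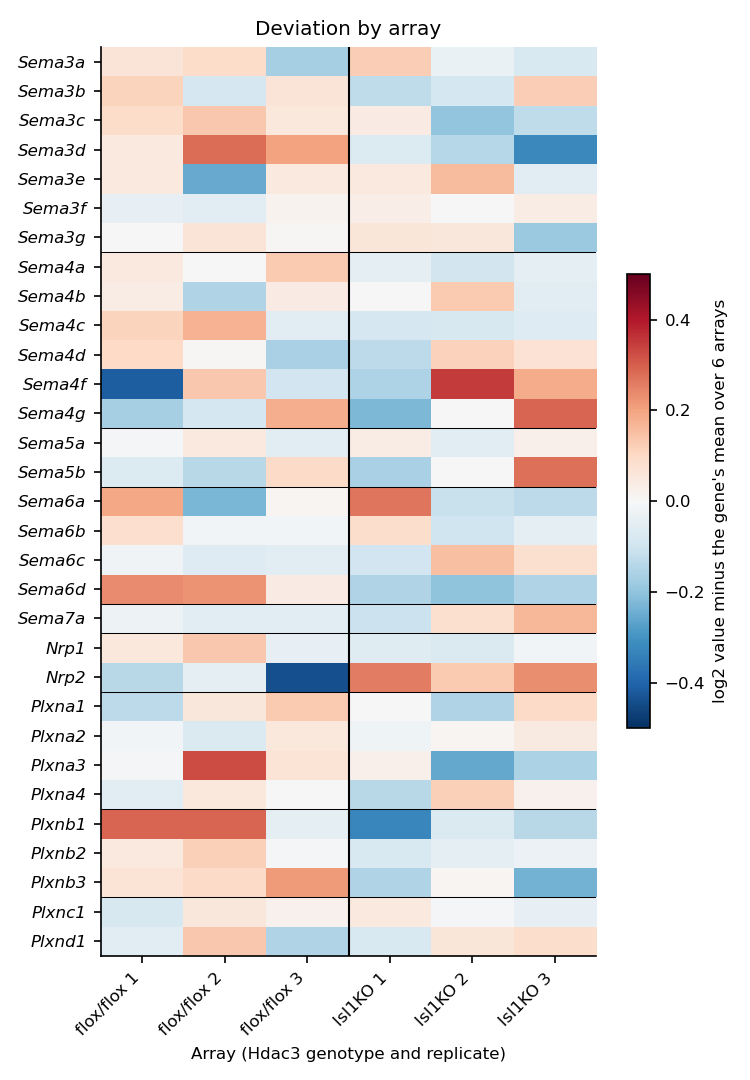
Heat map of log2 expression of the 31 genes by array, each value minus the gene's mean over 6 arrays, with Hdac3-flox/flox arrays left of the black line and Hdac3-Isl1KO arrays right of it; red is above and blue below the mean. Sema3d and Sema6d are red on the left and blue on the right, Nrp2 is the reverse, and most other rows mix colours within a group.

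The genes that act with or below these receptors were also tested. Of 30 measured effector genes, which include GTPases, their regulators and the collapsin response mediator proteins, 0 passed with limma, 3 were higher and 2 lower at an unadjusted p under 0.05 (6.57% and 7.96% of all genes), and the median was -0.01. Limk1, the kinase that inactivates cofilin below semaphorin receptors, read 7.63, 7.62 and 7.57 in Hdac3-flox/flox and 7.89, 7.91 and 7.93 in Hdac3-Isl1KO. These groups were tight and separate, with a difference of 0.30 (95% interval 0.16 to 0.45, limma adjusted p = 0.108). Rap1b, a small GTPase on which plexins act, differed by 0.27 (limma adjusted p = 0.252), and Mical2, an actin-oxidising enzyme of the family that binds A plexins, by -0.18 (adjusted p = 0.278).

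Of 16 coreceptor and alternative receptor genes 0 passed with limma, 1 was higher and 2 lower at an unadjusted p under 0.05, and the median was -0.06. The lower ones were the integrin genes Itga1 (-0.20) and Itgb1 (-0.18), whose products form a receptor of Sema7a, and the higher was Sdc3 (0.18), which encodes a syndecan. Met and Erbb2, the kinases that work with Plxnb1, differed by -0.26 and -0.15 (limma adjusted p = 0.395 and 0.394).

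Of 8 VEGF ligand and receptor genes, which share the neuropilins (Kdr counts in both this and the coreceptor list), 0 passed with limma, the median was -0.06, and a single gene reached an unadjusted p under 0.05. That one was Vegfa, which read 10.04, 9.99 and 10.04 in Hdac3-flox/flox and 9.75, 9.82 and 9.76 in Hdac3-Isl1KO, a difference of -0.25 (95% interval -0.40 to -0.10, limma adjusted p = 0.173). Vegfc, the ligand of Nrp2 and Flt4, differed by -0.06, Flt4 by -0.08, Kdr by -0.06 and Flt1, a decoy receptor, by 0.16, and none of these passed. Thus Nrp2 was 0.41 higher beside ligand genes whose differences lay between -0.25 and 0.06.

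**Figure D4:**
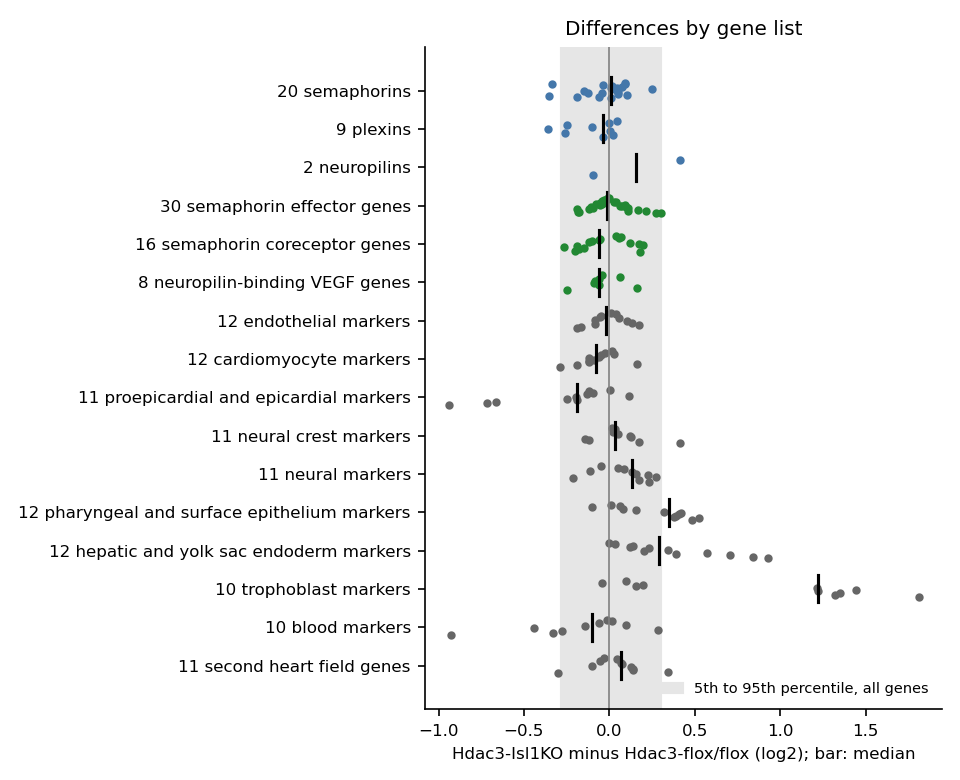
Differences between Hdac3-Isl1KO and Hdac3-flox/flox (log2) by gene list; each point is a gene, black bars are medians, and the grey band holds the 5th to 95th percentile of all genes, -0.28 to 0.30. Semaphorins, plexins and the pathway lists lie mostly inside the band, apart from genes such as Sema3d, Sema6d, Plxnb1 and Nrp2. The trophoblast, endoderm and epithelial markers reach to its right and the epicardial and blood markers to its left. Some genes of other marker lists also lie outside it.

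The other cell lists were set against the same shares of all genes. At an unadjusted limma p under 0.05 these were 6.57% higher and 7.96% lower, and without overlap 9.41% and 12.4%. Cardiomyocyte markers had 9 of 12 below 0 and a median of -0.08. Of the 12, 1 was higher and 2 were lower at an unadjusted p under 0.05, and 1 was higher and 7 lower without overlap. Their mean level ran from 11.21 to 11.23 in Hdac3-flox/flox and from 11.13 to 11.17 in Hdac3-Isl1KO, without overlap. Second heart field genes, which mark the cells in which Cre was active, had 7 of 11 above 0 and a median of 0.07, with overlapping levels. Neural markers had 8 of 11 above 0 and a median of 0.13, with overlapping levels, and 7 of the 11 lay below the median row. Of these neural markers 1 was higher at an unadjusted p under 0.05 and 0 were without overlap. Blood markers had 7 of 10 below 0, and their mean level ran from 7.75 to 7.81 in Hdac3-flox/flox and from 7.53 to 7.68 in Hdac3-Isl1KO, without overlap. Of the 10, 1 was higher and 4 lower at an unadjusted p under 0.05, as were 1 and 4 without overlap. Ppbp, a platelet chemokine gene, fell by 0.93 (limma adjusted p = 0.0300). By contrast, the globin gene Hbb-bh1 was higher in every Hdac3-Isl1KO array, by 0.28 (adjusted p = 0.246). Klf1, Ptprc and Csf1r differed by 0.10, 0.02 and -0.01, with overlapping groups. The part of cardiomyocytes or blood cells in the values of the family was not tested.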

How the data were processed

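The authors deposited log2 expression values, made with oligo and RMA per the submitters' processing notes (background correction, quantile normalization and probe set summary). Their versions, the genome build and the annotation are not given in the sources used. The platform annotation gave 1 symbol to 23521 of 41345 rows, which were used, and for genes with several rows the one with the highest mean was taken. This left 22180 genes with no filter on dim values. RefSeq gave gene types, chromosomes and upstream sequence. limma 3.58.1 in R 4.3.3 compared 3 with 3 arrays (two-sided, constant prior, 6.92 degrees of freedom), adjusted by Benjamini-Hochberg over all genes. The steps were tested on simulated data. Plots used matplotlib 3.10.9. Detection calls and scan batches were not used here, so background and batch were not tested. Levels of genes were placed against percentiles of array rows and were not otherwise compared between genes.

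The family, lists and tests were chosen with earlier results of these data known, while within the family the symbols alone chose the members. All members are named; per-array values are given for Sema3c, Sema3d, Plxna2, Plxnd1, Nrp1, Nrp2 and members with an unadjusted p under 0.05. From each list, genes past the threshold were named. Where none passed, up to 3 with the smallest p were named for the pathway, epithelial and second heart field lists. The endothelial, cardiomyocyte, neural crest and neural lists have no gene named in this way. Other members' arrays, Met, Erbb2, Kdr, Wt1, the Vegfc receptor genes and the sex-linked genes were added after values were seen. So were the endoderm, trophoblast and blood markers named that did not pass.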

Additional observations from a re-analysis of the deposited data

How the results depend on the processing

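The counts rest on few arrays and on the variance model. Over all genes 95 passed, and 149 did with repeated quantile normalization, 235 above the 25th percentile row, 617 above the median row, 866 with a prior trended on expression, 243 with array weights and 2 to 25 with 1 array left out. Same-numbered arrays did not deviate together (correlations -0.01, -0.09 and 0.04; 1 of 6 arrays correlated best with its own number). With the replicate number as a block 0 genes passed in limma, and 2744 had an unadjusted p under 0.05. In that fit 5 of the 31 genes had an unadjusted p under 0.05, with Sema4f in place of Plxnb3. Of the 31 genes 0 passed, 1 did above the median row and 2 with the trended prior, and 0 did under the other settings. Their median difference was 0.036 with repeated quantile normalization, where that of all genes was 0.02. With 1 array left out it was -0.024 to 0.00067, and 9 to 14 genes of the family were then without overlap. For these fits the share of all genes without overlap was not counted. Signs turned with repeated quantile normalization for Plxna1 (0.012), Plxnc1 (0.058), Sema3g (0.0060) and Isl1 (0.026), with centred arrays for Plxnc1 (0.00027), with the mean of a gene's rows for Plxna1 (0.0048), and with array weights for Plxna1 (0.012), Plxnc1 (0.026), Sema3a (-0.032) and Sema6a (-0.11). With 1 array left out they turned for Isl1 (-0.095 to 0.058), Plxna1 (-0.11 to 0.028), Plxna2 (-0.0096 to 0.054), Plxna4 (-0.057 to 0.072), Plxnc1 (-0.039 to 0.028), Plxnd1 (-0.017 to 0.13), Sema3a (-0.073 to 0.055), Sema3g (-0.087 to 0.035), Sema4b (-0.013 to 0.091), Sema4d (-0.035 to 0.11), Sema4g (-0.088 to 0.17), Sema5a (-0.020 to 0.035), Sema5b (-0.042 to 0.18), Sema6a (-0.11 to 0.12) and Sema6b (-0.095 to 0.00067). The cause was not tested, beyond the smaller number of genes or arrays in some settings. The number of arrays limits all values.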
